A study of Mus musculus with 19 samples.

Results

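The epithelial-mesenchymal transition (EMT) is the programme by which epithelial cells loosen their junctions and take on features of mesenchymal cells. Its best known transcription factors belong to the ZEB, Snail and Twist families, which bind E-box sequences and are known for repressing the E-cadherin gene Cdh1, while N-cadherin and vimentin are read as signs of the mesenchymal state. In squamous tumours of the skin the programme has been linked to invasion, and in whole tissue most of its factors are also expressed by fibroblasts and other stromal cells. The 10 genes described here were chosen by name as markers or drivers of this transition, and no measured value entered the rule. They are the cadherin genes Cdh1 and Cdh2, the intermediate filament gene Vim, the transcription factor genes Zeb1, Zeb2, Snai1, Snai2, Twist1 and Twist2, and Prrx1, a homeobox factor gene. All 10 were found among the 34807 genes of the table, and all 10 passed the filter on low counts.

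The RNA-seq libraries, 1 per sample, came from 15 tumours of mouse skin and from 4 normal skins, in a study of how the cell of origin shapes tumours driven by BRAFV600E, an activated kinase of the MAPK pathway. The oncogene was switched on by a tamoxifen-inducible Cre. In the Ivl:BRAFV600E genotype (6 tumours) Cre was under the promoter of Ivl, which is used by committed basal and suprabasal keratinocytes, and in K5:BRAFV600E (5 tumours) and K14:BRAFV600E (4 tumours) it was under those of Krt5 and Krt14, which are used by basal stem cells. Normal skin came from wild-type (WT) mice. All samples were labelled female, on a C57BL/6J background per the methods, and the labels give an age of 7 to 20 weeks at induction for every group and no age at collection. Recombination was induced through the shaved back skin, with tamoxifen for Ivl and with 4-hydroxytamoxifen for K5 and K14. Ivl tumours arose at several body sites, and the site of each library is not in the labels. The labels call the tumours squamous cell carcinoma and do not say whether libraries of 1 group came from separate mice, so p-values measure the spread between these samples.

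The libraries held 45715309 to 72609771 counts each. The scale factors (trimmed mean of M values, TMM) were 1.43 to 1.66 in skin and 0.81 to 1.15 in tumours, so the scale bears on every comparison with skin, and the values under other scalings stand beside the results they change. Levels are given as CPM, counts divided by the TMM-scaled library size. The authors had adjusted the counts for a sequencing batch, and a trace of this was found in Ivl tumours 1, 2 and 3 and K5 tumour 1. The 4 libraries had a mean less than 0.1 log2 away from that of the remaining 15 for 96.6% of 13954 genes, against 21.1% for the 4 K14 libraries, and for all 10 EMT genes. Each comparison was therefore made over 19 libraries and again within the 15 libraries outside that set, namely 4 skin samples and 3 Ivl, 4 K5 and 4 K14 tumours.

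Normal skin was itself uneven. The summed level of 12 fibroblast markers was 3496 CPM in skin 1, 929 in skin 2, 14210 in skin 3 and 19750 in skin 4, and that of 10 macrophage and monocyte markers was 123, 80.2, 639 and 920 CPM. Among Ivl tumours the fibroblast sum was highest in tumour 3 (11830 CPM) and lay between 1752 and 4439 CPM in the other 5. It was 6421 to 16840 CPM in K5 and 4525 to 14340 CPM in K14 tumours. Keratinocyte markers (12 genes) summed to 9821 to 17950 CPM in skin and 46640 to 113500 CPM in tumours, so the epithelial content that the labels name was present in every library. In bulk tissue, fewer cells of a type and less RNA per cell cannot be told apart.

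Of the 10 genes, 6 differed between Ivl tumours and normal skin at an adjusted p under 0.05 (edgeR quasi-likelihood F test, Benjamini-Hochberg adjustment over 32031 genes), 2 raised and 4 lowered. Tumours of the K5 and K14 promoters were merged, as in the study. In these 6 of the 10 genes differed as well, again 2 raised and 4 lowered. The raised genes were Cdh1 and Snai2 and the lowered genes were Cdh2, Zeb1, Zeb2 and Prrx1 in both comparisons, which share their skin samples. Of all genes tested, 35.9% differed in Ivl tumours (20.4% raised, 15.5% lowered) and 62.2% in K5/K14 tumours (23.2% raised, 38.9% lowered). The count of EMT genes in K5/K14 tumours was thus near that of any 10 genes of the table. With the set left out, 7 of 10 differed in Ivl tumours (2 raised, 5 lowered), against 54.9% of all genes (22.2% raised, 32.7% lowered), and 6 of 10 in K5/K14 tumours (2 raised, 4 lowered), against 66.2% (23.9% raised, 42.3% lowered). With each library left out in turn, 4 to 7 of the 10 genes passed in either comparison over 19 libraries. The median log2 fold change of the 10 genes was -0.89 in Ivl and -0.55 in K5/K14 tumours, beside -0.46 and -0.60 over all genes.

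**Figure D1:**
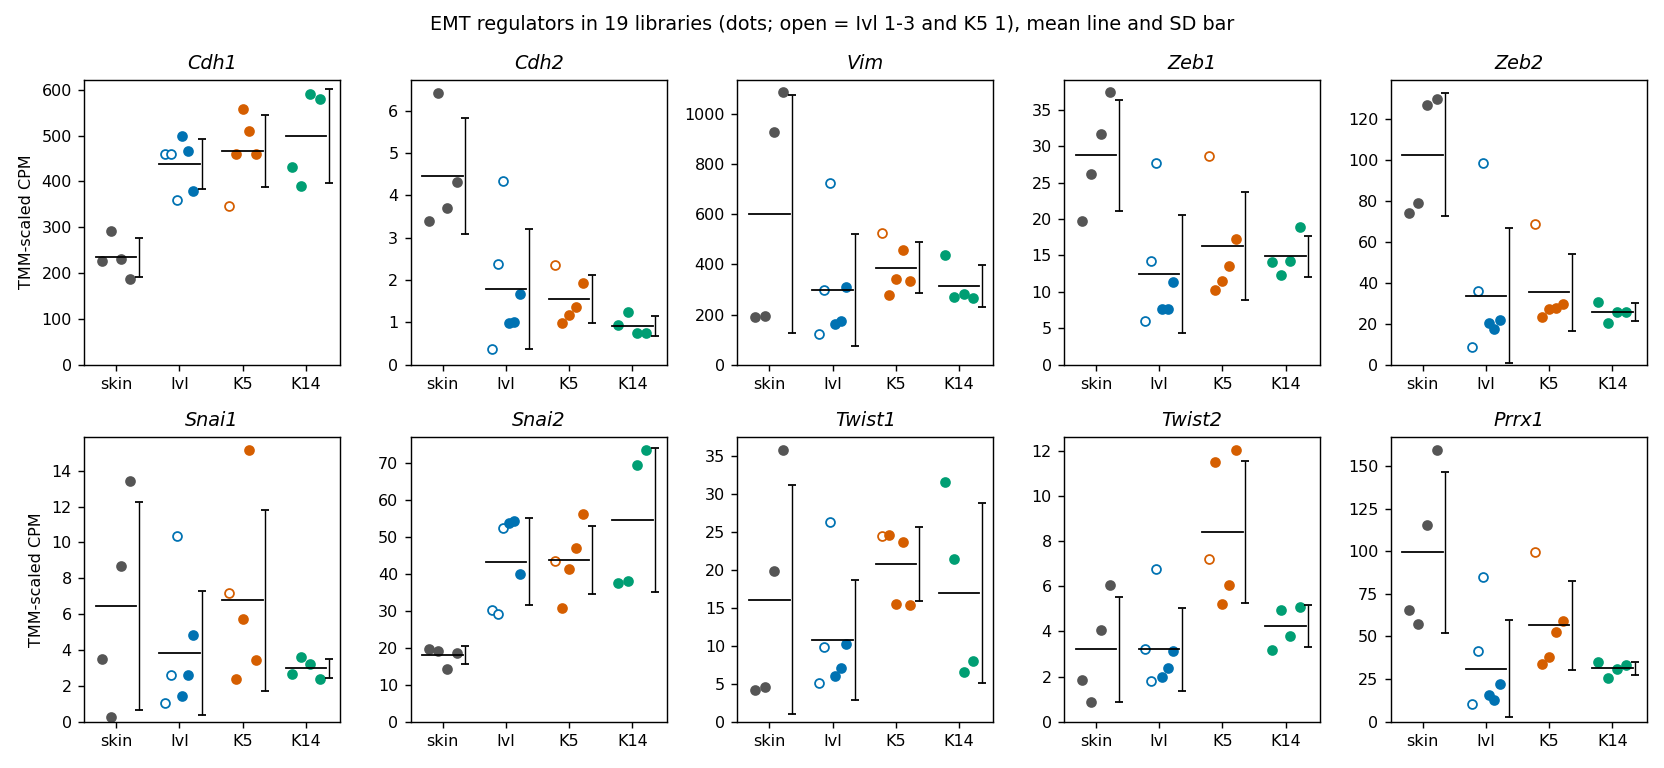
TMM-scaled CPM (linear axis from 0) of each EMT gene in the 4 skin, 6 Ivl, 5 K5 and 4 K14 libraries, 1 dot per library, with the mean as a line and the SD as a bar beside it, and with Ivl 1 to 3 and K5 1 as open dots. Cdh1 and Snai2 are higher in all 15 tumours than in all 4 skin samples, Zeb2 is lower in all tumours but Ivl 3, which lies at 98.6 CPM, and Vim, Snai1 and Twist1 are spread widely within skin.

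**Figure D2:**
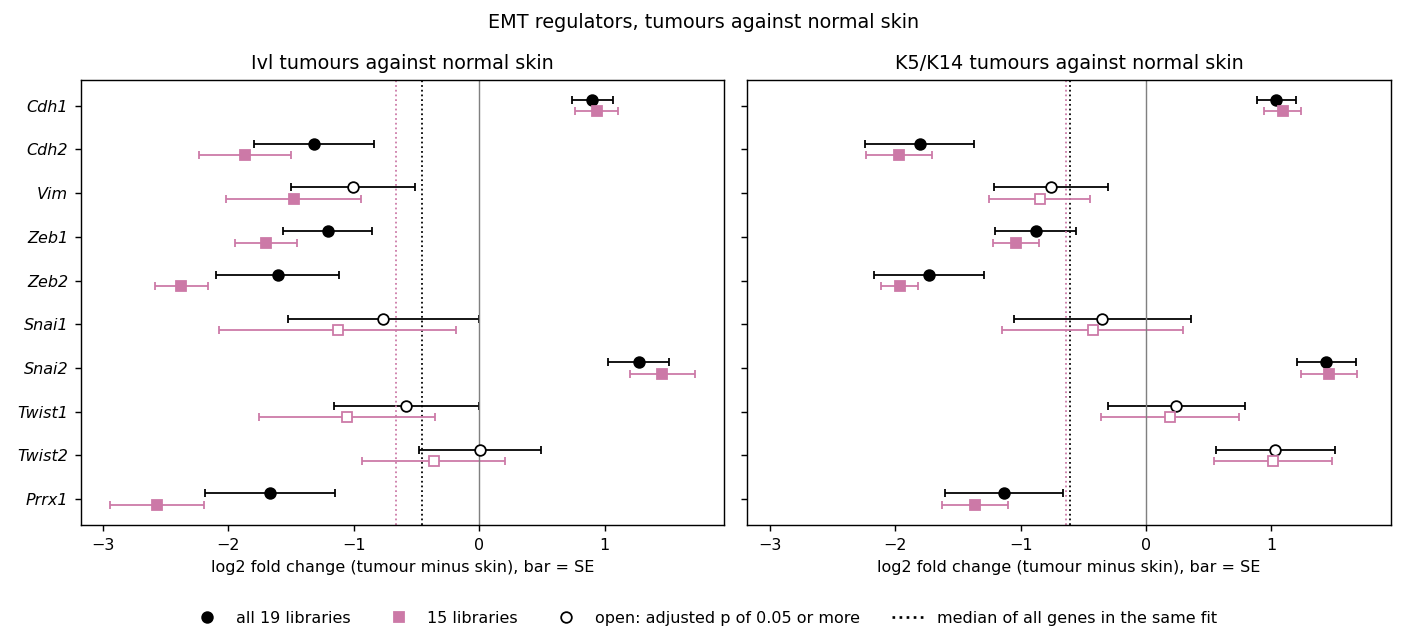
Log2 fold change of tumour against skin (horizontal axis, bars are SE) for each EMT gene, over 19 libraries (black circles) and within the 15 libraries (pink squares), with open symbols for an adjusted p of 0.05 or more and dotted lines at the median of all genes in the same fit. Zeb2 and Prrx1 lie farthest below 0 in Ivl tumours within the 15 libraries, at -2.37 and -2.57, and Snai2 lies farthest above 0 in both comparisons.

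Cdh1 (ENSMUSG00000000303, GRCm38 chromosome 8, 106603351 to 106670246, plus strand) encodes E-cadherin, the adhesion molecule of epithelial junctions. Its level was 227, 291, 230.4 and 187 CPM in skin 1 to 4. In Ivl tumours it was 360.1 CPM at the lowest, 459.8 at the median and 498 at the highest, and in K5/K14 tumours 346, 460.1 and 591. All 15 tumours lay above all 4 skin samples. Against skin, Ivl tumours had a log2 fold change of 0.90 ± 0.17 (SE; adjusted p 2.85e-04, edgeR) and K5/K14 tumours one of 1.04 ± 0.16 (adjusted p 2.75e-05). Groups did not overlap for 22.2% of all genes in the first comparison and 41.4% in the second. The rise depended on the scale, since with library totals in place of TMM it was 0.19 (adjusted p 0.288) and 0.22 (adjusted p 0.19), neither past the threshold. On the TMM scale without the set of 4 the values were 0.94 (adjusted p 3.3e-04) and 1.09 (adjusted p 1.12e-05). Library totals moved the median of all genes to -1.13 and -1.40, and relative to those medians Cdh1 was still higher. The part of the higher keratinocyte marker sum of tumours in this rise was not tested.

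Cdh2 (ENSMUSG00000024304, chromosome 18, 16588877 to 16809246, minus strand) encodes N-cadherin, the cadherin of neural and mesenchymal cells. It was the lowest of the 10 genes per exonic length in every group. Skin held 3.402, 6.43, 3.69 and 4.32 CPM. Ivl tumours held 0.369 at the lowest, 1.33 at the median and 4.33 CPM at the highest, the last in tumour 3, which was the only tumour to overlap skin, and K5/K14 tumours held 0.743, 1.17 and 2.35 CPM. It fell by 1.31 ± 0.48 on the log2 scale in Ivl tumours (edgeR adjusted p 0.039) and by 1.81 ± 0.43 in K5/K14 tumours (adjusted p 0.00162). The first of these calls was lost when any of Ivl 1, 4, 5 or 6 or skin 2, 3 or 4 was left out (adjusted p up to 0.12). Outside the set it fell by 1.87 ± 0.36 (adjusted p 5.82e-04) and by 1.97 ± 0.26 (adjusted p 1.26e-05), and leaving out a further library ended neither call. Cdh1 and Cdh2 thus moved in opposite directions on the TMM scale, the epithelial cadherin up and the mesenchymal cadherin down.

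Vim (ENSMUSG00000026728, chromosome 2, 13573927 to 13582826, plus strand) encodes vimentin, the intermediate filament of mesenchymal cells. Skin held 191, 194, 929 and 1088 CPM, and the pair of high libraries was the pair with high fibroblast and macrophage sums. Ivl tumours held 123 CPM at the lowest, 235 at the median and 727 at the highest, and K5/K14 tumours held 265.5, 332 and 528. Every tumour but Ivl 1, 4 and 5 lay between the low and the high skin samples. Vim did not pass the test in Ivl (-1.01 ± 0.49, edgeR adjusted p 0.11) or K5/K14 tumours (-0.76 ± 0.45, adjusted p 0.148). In Ivl tumours it passed when Ivl 3 was left out (edgeR adjusted p 0.0112). It also passed in Ivl tumours within the 15 libraries (-1.48 ± 0.54, adjusted p 0.0322), a call lost without Ivl 4, Ivl 5, skin 3 or skin 4 (adjusted p up to 0.105). For K5/K14 tumours the value there was -0.85 ± 0.41 (adjusted p 0.0769), not past the threshold. That value passed without skin 1 or skin 2 (edgeR adjusted p down to 0.0145). With library totals it passed in both comparisons (-1.57, adjusted p 0.0203, and -1.51, adjusted p 0.0088). The part of stromal cells in these values was not tested.

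Zeb2 and Prrx1 fell together in both comparisons and varied alike across tumours. Where RefSeq gave a start for them on GRCm38.p6, the bases just upstream are shown 5′ to 3′ on the strand of the gene, with that of Snai1 for contrast. Capitals mark CACCTG or CAGGTG, the E-box forms that ZEB and Snail factors are known to bind, searched on both strands. Only the bases before the annotated gene are given, which left fewer for Prrx1, and for Zeb2 the start farthest upstream was taken.

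Zeb2 (chr2:45117443-45117692, minus strand): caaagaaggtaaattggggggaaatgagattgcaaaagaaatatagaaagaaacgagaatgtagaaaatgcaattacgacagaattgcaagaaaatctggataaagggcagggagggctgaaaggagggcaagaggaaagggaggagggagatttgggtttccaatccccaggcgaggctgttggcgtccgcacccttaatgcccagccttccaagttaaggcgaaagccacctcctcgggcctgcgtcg
Prrx1 (chr1:163313711-163313900, minus strand): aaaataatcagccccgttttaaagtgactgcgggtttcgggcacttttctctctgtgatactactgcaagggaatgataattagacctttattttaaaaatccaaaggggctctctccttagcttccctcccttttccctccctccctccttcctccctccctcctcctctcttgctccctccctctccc
Snai1 (chr2:167537945-167538194, plus strand): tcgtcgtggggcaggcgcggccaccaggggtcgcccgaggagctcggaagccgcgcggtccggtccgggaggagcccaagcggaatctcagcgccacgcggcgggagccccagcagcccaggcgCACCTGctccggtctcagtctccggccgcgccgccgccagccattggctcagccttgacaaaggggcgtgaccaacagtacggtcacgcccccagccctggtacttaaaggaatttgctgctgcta

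The Snai1 window held 1 such motif, CACCTG, its first base 126 before the start (position -126), and the Zeb2 and Prrx1 windows held none. Those of Twist1 and Twist2 held none either, and none of these 4 windows held the wider form CANNTG, of which CACCTG and CAGGTG are cases. Among 32851 RefSeq promoter windows of 250 bases, 17.2% held CACCTG or CAGGTG and 66.2% held CANNTG. A match in such a window is a description of its letters, and absence says nothing of binding elsewhere.

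Zeb1 (ENSMUSG00000024238, chromosome 18, 5591860 to 5775467, plus strand) and Zeb2 (ENSMUSG00000026872, chromosome 2, 44983632 to 45117395, minus strand) encode the zinc finger factors that repress Cdh1. Zeb2 was at 74.2, 79.2, 127 and 130.0 CPM in skin. It was at 8.39 at the lowest, 20.9 at the median and 98.6 at the highest in Ivl tumours, and at 20.4, 27.1 and 68.5 in K5/K14 tumours. All tumours but Ivl 3 lay below all skin samples, and K5 tumour 1 was the highest of the K5/K14 tumours. It fell by 1.61 ± 0.49 on the log2 scale in Ivl (edgeR adjusted p 0.0167) and by 1.73 ± 0.44 in K5/K14 tumours (adjusted p 0.00281). Without the set the fall was 2.37 ± 0.21 (adjusted p 2.93e-07) and 1.96 ± 0.15 (adjusted p 3.86e-08). Both calls held with each scaling tried and with each library left out, with adjusted p up to 0.0443 and 0.0105 over the 19 libraries.

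Zeb1 was at 19.7, 26.2, 31.7 and 37.5 CPM in skin. In Ivl tumours it was at 5.99 at the lowest, 9.49 at the median and 27.7 at the highest, and in K5/K14 tumours at 10.2, 14.1 and 28.6. Ivl 3 and K5 1 were the 2 tumours above the lowest skin sample. For Ivl tumours its log2 fold change was -1.21 ± 0.35 (adjusted p 0.0125, edgeR) and for K5/K14 tumours -0.88 ± 0.32 (adjusted p 0.0244), and the second call was lost without skin 3 or skin 4 (adjusted p up to 0.0882). Within the 15 libraries the values were -1.70 ± 0.25 (adjusted p 4.48e-05) and -1.04 ± 0.18 (adjusted p 1.67e-04). The second was a smaller fall than that of Zeb2, with 95% intervals that did not overlap (-1.43 to -0.65 against -2.28 to -1.65), although the difference between the genes was not tested. Transcripts antisense to exons of Zeb1 (Gm10125, at most 2.30 CPM) and Zeb2 (Zeb2os, at most 1.2 CPM) could share reads with them if strand was not used in counting, which is not stated.

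Snai2 (ENSMUSG00000022676, chromosome 16, 14705852 to 14709385, plus strand) encodes Slug, a Snail family repressor that basal keratinocytes also express in normal epidermis. It was the one EMT transcription factor gene of the 10 that rose. Skin held 19.6, 19.2, 14.3 and 18.7 CPM. Ivl tumours held 29.1 at the lowest, 46.2 at the median and 54.5 at the highest, and K5/K14 tumours 30.8, 43.5 and 73.6. All 15 tumours lay above all skin samples. For Ivl tumours its log2 fold change was 1.27 ± 0.25 (adjusted p 4.75e-04, edgeR) and for K5/K14 tumours 1.44 ± 0.24 (adjusted p 6.1e-05). Outside the set it was 1.46 (adjusted p 2.64e-04) and 1.46 (adjusted p 4.49e-05). With library totals the rise was smaller but still passed (0.56, adjusted p 0.0495, and 0.61, adjusted p 0.0197). Unlike Vim, Snai2 was no higher in the skin samples with a high fibroblast sum. Keratinocyte markers also summed higher in tumours, and their part in the rise of Snai2 was not tested.

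Snai1 (ENSMUSG00000042821, chromosome 2, 167538195 to 167542814, plus strand) encodes Snail, the other repressor of that family measured here. Skin held 3.51, 0.259, 8.68 and 13.4 CPM, a spread wider than that between the groups. Ivl tumours held 1.04 at the lowest, 2.60 at the median and 10.3 at the highest, and K5/K14 tumours 2.38, 3.44 and 15.1. It did not pass the test in Ivl (-0.76 ± 0.76, edgeR adjusted p 0.411) or K5/K14 tumours (-0.35 ± 0.71, adjusted p 0.678). The 95% intervals ran from -2.36 to 0.83 and from -1.83 to 1.13, so that a fall or a rise within these limits was not excluded. Without the set of 4 the values were -1.13 (adjusted p 0.314) and -0.42 (adjusted p 0.614). The related Snai2 and Snai1 thus gave different pictures, Snai2 above skin in every tumour and Snai1 within the range of skin in every tumour but K5 4, which lay above it.

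Twist1 (ENSMUSG00000035799, chromosome 12, 33957671 to 33959829, plus strand) and Twist2 (ENSMUSG00000007805, chromosome 1, 91801461 to 91848028, plus strand) encode basic helix-loop-helix factors of mesoderm and dermal fibroblasts. Twist1 was at 4.11, 4.55, 19.9 and 35.8 CPM in skin, low in the pair of samples with a low fibroblast sum and high in the other pair. It was at 5.15 at the lowest, 8.47 at the median and 26.2 at the highest in Ivl tumours, and at 6.56, 21.4 and 31.6 in K5/K14 tumours. It did not pass the test in Ivl (-0.58 ± 0.58, edgeR adjusted p 0.41) or K5/K14 tumours (0.24 ± 0.55, adjusted p 0.71), and the sign of the second value flipped with library totals (-0.49). Without the set of 4 the values were -1.05 (adjusted p 0.21) and 0.19 (adjusted p 0.771).

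Twist2 was at 1.83, 0.877, 4.06 and 6.05 CPM in skin. Ivl tumours held 1.82 at the lowest, 2.75 at the median and 6.78 at the highest. K5 tumours held 7.21, 11.5, 5.19, 6.06 and 12.1 CPM, and K14 tumours 3.16, 4.96, 3.79 and 5.07. Against skin, the log2 fold change of Ivl tumours was 0.01 ± 0.48 (adjusted p 0.994, edgeR) and that of K5/K14 tumours 1.03 ± 0.47 (adjusted p 0.0646), neither past the threshold. The second passed when Ivl 3 or skin 4 was left out (adjusted p down to 0.0178), and without the set of 4 the values were -0.36 (adjusted p 0.594) and 1.01 (adjusted p 0.0682). An antisense transcript, Gm29100, overlaps 1477 exonic bases of Twist2, and its level was at most 0.799 CPM.

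Prrx1 (ENSMUSG00000026586, chromosome 1, 163245119 to 163313710, minus strand) encodes a homeobox factor of limb and dermal mesenchyme that is also known as an inducer of the transition. Skin held 65.4, 57.3, 115 and 159 CPM. Ivl tumours held 10.5 at the lowest, 18.7 at the median and 84.7 at the highest, and K5/K14 tumours 25.6, 35.0 and 99.3. Ivl 3 and K5 1 were again the highest tumours and lay within the range of skin, as did K5 5 (59.0 CPM), which is outside the set of 4. Prrx1 fell by 1.67 ± 0.52 on the log2 scale in Ivl tumours (edgeR adjusted p 0.0185) and by 1.13 ± 0.47 in K5/K14 tumours (adjusted p 0.0435). The first call was lost without skin 4 (adjusted p 0.0687), and the second without any of 8 libraries, namely K5 2, 3 and 4, K14 2, 3 and 4 and skin 3 and 4 (adjusted p up to 0.18). Without the set the falls were 2.57 ± 0.38 (adjusted p 5.27e-05) and 1.37 ± 0.26 (adjusted p 4.09e-04), and leaving out a further library ended neither call.

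Over all 19 libraries, 2 genes (Cdh1, Snai2) lay above skin in every Ivl tumour and 0 lay below skin in every Ivl tumour, since Ivl 3 overlapped skin for each lowered gene. Within the 15 libraries Cdh2, Zeb1, Zeb2 and Prrx1 lay below skin in all 3 remaining Ivl tumours, where groups did not overlap for 57.8% of all genes. Among K5/K14 tumours 2 genes lay above and 2 below (Cdh2, Zeb2), and within the 15 libraries 2 above and 3 below (Cdh2, Zeb1, Zeb2), where groups did not overlap for 45.5% of all genes.

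Ratios of genes within a library do not depend on the scale between libraries. These were chosen after the values were seen and are given as a description, per exonic length. The ratio of Cdh1 to Cdh2 was 76.3 to 118 in skin and 147 to 2200 in tumours, above skin in 15 of 15. That of Snai2 to Zeb2 was 1.11 to 2.61 in skin and 5.25 to 35.7 in tumours, above skin in 15 of 15. That of Cdh1 to Zeb2 was 6.27 to 16.0 in skin and 15.9 to 239 in tumours, above skin in 14 of 15. The balance of E-cadherin against these 2 genes, and of Slug against ZEB2, was thus higher in tumours whatever the scale, with Ivl 3 the exception for Cdh1 to Zeb2. Both ends of these tumour ranges came from Ivl 3 and Ivl 1, which belong to the set of 4. In the 11 tumours outside that set the ratios were 403 to 1400, 12.1 to 30.6 and 61.2 to 116, in the order above, all above skin. Such ratios are not free of the batch adjustment, and its part in them was not tested. The ratio of Cdh1 to Vim was 1.23, 1.56, 0.257 and 0.178 in skin and 0.514 to 3.88 in tumours, above all skin samples in 8 of 15, and it was below 1 in Ivl 3 and K5 1.

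**Figure D3:**
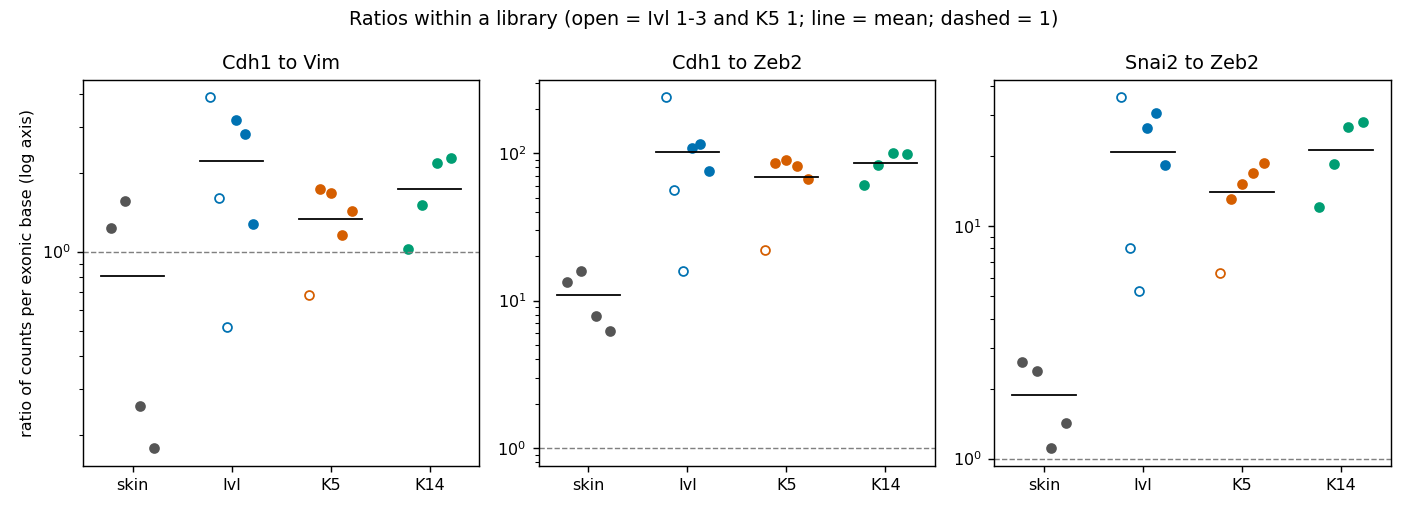
Ratio of counts per exonic base (log axis) of Cdh1 to Vim, Cdh1 to Zeb2 and Snai2 to Zeb2 in each of the 19 libraries, with the group mean as a line, a dashed line at 1 and open dots for Ivl 1 to 3 and K5 1. Snai2 to Zeb2 separates all 15 tumours (5.25 or more) from all 4 skin samples (2.61 or less), while Cdh1 to Vim overlaps between skin and tumours.

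The order of the genes by CPM per kilobase of exon also differed between skin and tumours. In skin Vim (127 ± 100.3, SD, n = 4) came before Cdh1 (51.1 ± 9.37), with Vim so spread that their order was not fixed, and Twist1 (9.88 ± 9.23), Prrx1 (8.97 ± 4.29) and Snai2 (8.89 ± 1.21) followed within each other's spread. Zeb2 (5.14 ± 1.504), Snai1 (3.99 ± 3.57), Zeb1 (2.80 ± 0.74) and Twist2 (1.01 ± 0.73) came next, and Cdh2 (0.55 ± 0.17) was last. Among K5/K14 tumours Cdh1 (105 ± 18.7, n = 9) and Vim (74.8 ± 20.4) lay within each other's spread at the top, and Snai2 (24.1 ± 7.31) was the highest of the transcription factor genes, its range of 1 SD just meeting that of Twist1 (11.7 ± 5.09). In Ivl tumours Cdh1 was at 95.6 ± 12.0 (n = 6), Vim at 63.0 ± 47.0 and Snai2 at 21.4 ± 5.85, and there Snai2 lay above Twist1 (6.604 ± 4.82) by more than their spread. Zeb2 (1.69 ± 1.66 in Ivl, 1.55 ± 0.72 in K5/K14) and Zeb1 (1.21 ± 0.79, 1.52 ± 0.54) lay within each other's spread in both tumour groups.

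Ivl tumours were then set against those of K5 and K14, which differ in the promoter used to choose the cell of origin. They differ in other ways too. The paper reports that Ivl tumours arose much later and grew more slowly, and the inducing drug was not the same. Most of the libraries with the trace of the batch adjustment were also Ivl tumours. The comparison therefore cannot separate the cell of origin from these differences. None of the 10 genes passed, against 2.36% of all genes (756 of 32031), and none passed within the 15 libraries, against 0.41%. At an unadjusted p under 0.05 there was 1 of 10 genes, Twist2, over 19 libraries (edgeR), beside 6754 of 32031 genes in all, and DESeq2 called 0 of the 10, beside 2133 of all genes. Twist2 was lower in Ivl tumours by 1.03 ± 0.41 on the log2 scale (95% interval -1.88 to -0.17, edgeR p 0.0209, adjusted p 0.157). For Cdh1 the interval of the difference ran from -0.41 to 0.14 and for Snai2 from -0.57 to 0.24, close about 0. Those of Vim (-1.11 to 0.61), Zeb2 (-0.73 to 0.97) and Snai1 (-1.75 to 0.92) were wider.

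Within the 15 libraries the largest differences by p were those of mesenchymal factors, lower in Ivl tumours. Prrx1 was at 15.7, 12.6 and 21.8 CPM in Ivl 4, 5 and 6 and at 25.6 CPM or more in all 8 K5/K14 tumours, a log2 fold change of -1.20 ± 0.33 (edgeR p 0.00216, adjusted p 0.134). Twist2 was at 1.97, 2.37 and 3.14 CPM in the same tumours and at 3.16 CPM or more in K5/K14 tumours (-1.38 ± 0.54, p 0.0221, adjusted p 0.339). Zeb1 (-0.66 ± 0.22, p 0.0079, adjusted p 0.228) and Zeb2 (-0.41 ± 0.17, p 0.0316, adjusted p 0.38) were lower too, with overlap. None of the 4 passed the adjustment, and an unadjusted p under 0.05 was met by 3611 of 31971 genes in all. Groups did not overlap for 2 of 10 genes, beside 4.87% of all genes, and for 0 of 10 over 19 libraries, beside 0.656%. The fibroblast marker sum was 1752 to 3027 CPM in these 3 Ivl tumours and 4525 to 14340 CPM in the 8 K5/K14 tumours, and its part in these differences was not tested.

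The groups merged above were also compared with each other. Between K5 and K14 tumours 0 of 10 genes passed, against 0.0% of all genes over 19 libraries (1945 of 32031 at an unadjusted p under 0.05, and 173 called by DESeq2) and 0.0532% within the 15. Twist2 came closest. All 5 K5 tumours lay above all 4 K14 tumours, with the lowest K5 value at 5.19 and the highest K14 value at 5.07 CPM, and the log2 fold change was 0.99 ± 0.48 (edgeR p 0.0525, adjusted p 0.823). Groups did not overlap for 4.44% of all genes, and for 7.15% within the 15 libraries. Twist1 fell into 2 levels among K14 tumours, 31.6 and 21.4 CPM in K14 1 and 2 against 6.56 and 8.04 CPM in K14 3 and 4, and Snai2 stood the other way, at 37.6 and 38.2 against 69.4 and 73.6 CPM. The fibroblast marker sum was 14340 and 12530 CPM in the first pair and 4525 and 8123 CPM in the second.

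Likeness across tumours is given as a description with no test, since tumours of 1 study share processing and stromal content. Over the 11 tumours outside the set of 4, Zeb2 and Prrx1 had a Pearson r of log2 CPM of 0.89 (Spearman 0.90), Vim and Prrx1 0.83 (0.79), and Vim and Zeb2 0.82 (0.855). Ivl and K5/K14 tumours formed separate clusters in the fibroblast sum, so r was also taken over the 8 K5/K14 tumours alone, where these pairs stood at 0.69, 0.58 and 0.68, and at 0.77, 0.53 and 0.54 without the 2 tumours farthest from the median of the second gene. Twist1 was the member most like the fibroblast sum, with r of 0.84 over 11 and 0.82 over 8 tumours, but this fell to 0.49 without the 2 tumours farthest from the median sum. Prrx1 had r of 0.75 with the fibroblast sum over 11 tumours and -0.09 over the 8, so that likeness rested on the gap between Ivl and K5/K14 tumours. Other sums stood closer to some members. Over 11 and 8 tumours, Vim had -0.67 and -0.93 with the keratinocyte sum, but 0.72 and 0.21 with the fibroblast sum. With the endothelial sum Zeb1 had 0.90 and 0.69, and Zeb2 0.88 and 0.71. With the pericyte and smooth muscle sum Zeb1 had 0.85 and 0.74, and Zeb2 0.82 and 0.725. Without the 2 farthest tumours the endothelial values were 0.34 and -0.43, and the pericyte values 0.36 and 0.93. Cdh1 and the fibroblast sum stood at -0.11 over 11 and -0.87 over 8 tumours, and Snai2 and Twist1 at -0.74 and -0.88 (-0.58 without the 2 tumours farthest from the median of Twist1).

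**Figure D4:**
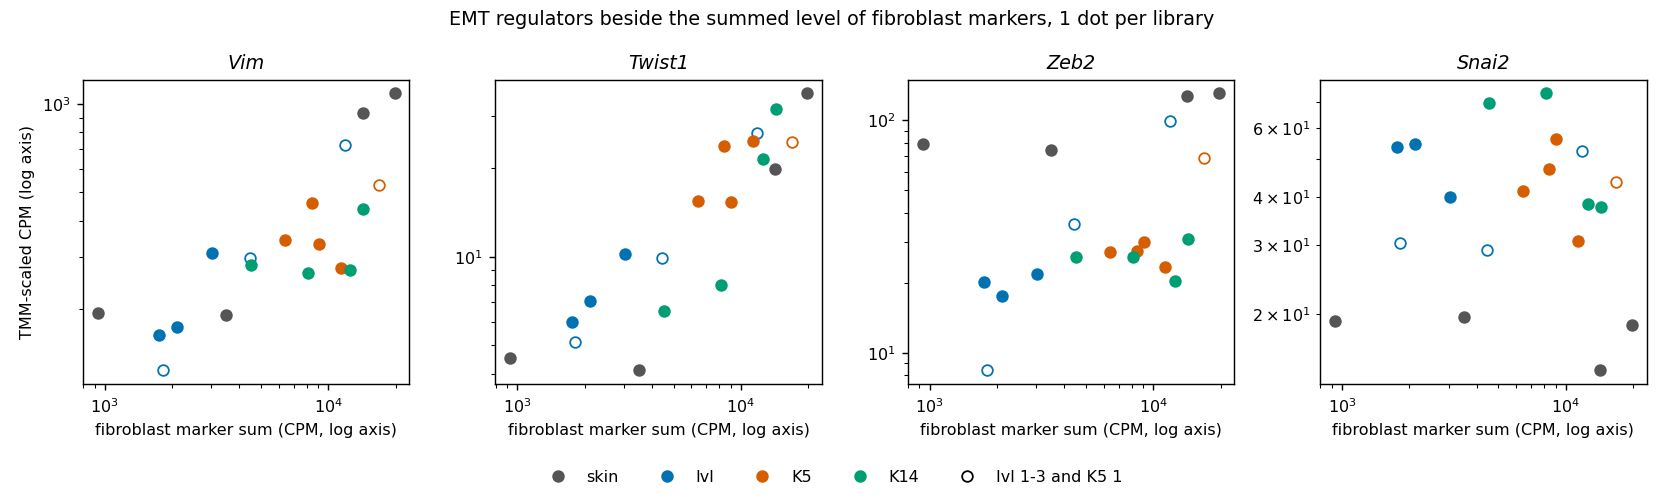
TMM-scaled CPM (log axis) of Vim, Twist1, Zeb2 and Snai2 against the summed CPM of 12 fibroblast markers (log axis), 1 dot per library, coloured by group, with open dots for Ivl 1 to 3 and K5 1. Skin 3 and 4, the grey dots at sums of 14210 and 19750 CPM, are high for Vim and Twist1, whereas for Zeb2 all 4 skin samples lie high and for Snai2 all 4 lie low whatever their sum.

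The genes with the highest r over those 11 tumours, among 13189 genes with a mean over 2 CPM there, were named for each member, and picking the highest r of so many makes it high by construction. Those most like Zeb2 were Cspg4, a pericyte marker (r 0.99, and 0.94 over all 15 tumours), and Unc5b (0.96, but -0.32 over 15). Those of Zeb1 were Shank3 (0.94, 0.97) and Kdr, the VEGF receptor of endothelium (0.94, 0.82). Vim was most like Lrp3 (0.97, 0.94) and Kank2 (0.97, 0.96), and Prrx1 most like Dbn1 (0.97, 0.97) and Lhfp (0.97, 0.88). Vim, Zeb1 and Prrx1, and Zeb2 with Cspg4, thus kept their nearest genes at an r over 0.8 with the 4 libraries added. The nearest genes of Cdh1 were Fer1l4 (0.97, 0.48) and Hdlbp (0.94, 0.66), of Snai2 Zc3hav1 (0.96, 0.71) and Btbd3 (0.96, 0.55), of Twist1 Isoc2a (0.96, 0.34) and Grcc10 (0.95, 0.29), and of Twist2 Pde4d (0.985, 0.715) and Bcat1 (0.90, 0.52). For these genes the likeness was lower over 15 tumours. Snai1 was nearest to Plxna4 (0.86, 0.85) and Rps15a-ps7 (0.85, 0.26), and Cdh2 to Rcan1 (0.87, 0.615) and Faxc (0.86, 0.30).

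Further genes of the transition were counted from 3 lists. Of 40 further epithelial genes (junctions, polarity and epithelial transcription factors, 2 of them also keratinocyte markers), 21 rose and 0 fell in Ivl tumours against skin, with a median log2 fold change of 0.79, and 25 rose and 6 fell in K5/K14 tumours, with a median of 0.67. Of all genes, 20.4% rose and 15.5% fell in the first comparison and 23.2% and 38.9% in the second, with medians of -0.46 and -0.60. Outside the set of 4, 22 of the 40 rose and 3 fell in Ivl tumours, and 25 rose and 6 fell in K5/K14 tumours. In both comparisons F11r, a tight junction adhesion molecule, rose with the smallest adjusted p of the list (1.37 ± 0.15, edgeR adjusted p 1.82e-05, and 1.605 ± 0.14, adjusted p 8.07e-07). Rab25, an epithelial trafficking GTPase, rose from 83.6 CPM in skin to 420.2 in Ivl tumours (2.33 ± 0.29, edgeR adjusted p 1.96e-05), and Prss8, a membrane protease, rose in K5/K14 tumours (1.84 ± 0.20, adjusted p 1.51e-06). The mean of Rab25 was 424.5 CPM in K5/K14 tumours. That of Prss8 was 25.8 CPM in skin, 68.3 in Ivl and 92.2 in K5/K14 tumours. The counts moved with the scale. With library totals 12 rose and 10 fell in Ivl, and 13 rose and 13 fell in K5/K14 tumours. How far the higher keratinocyte marker sum of tumours entered these counts was not tested.

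Ocln, which encodes the tight junction protein occludin, was the 1 epithelial gene of 40 that differed between Ivl and K5/K14 tumours. Its mean was 31.4 CPM in skin, 28.7 in Ivl and 9.50 in K5/K14 tumours. It was higher in Ivl than in K5/K14 tumours by 1.596 ± 0.24 on the log2 scale (edgeR adjusted p 0.00374, and 0.0042 within the 15 libraries), and K5/K14 tumours lay below skin (-1.72 ± 0.27, adjusted p 3.33e-05). Krt19, a keratin of simple and follicular epithelium, also fell in K5/K14 tumours (-2.84 ± 0.56, edgeR adjusted p 3.6e-04). Its mean was 1.64 CPM in skin, 0.65 in Ivl and 0.227 in K5/K14 tumours.

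Of 36 further mesenchymal genes (matrix, integrins and contractile genes, 4 of them also fibroblast or pericyte markers), 6 rose and 4 fell in Ivl tumours and 8 rose and 3 fell in K5/K14 tumours. The medians were -0.52 and 0.34, again beside -0.46 and -0.60 over all genes. The counts in Ivl tumours were near the background of 20.4% raised and 15.5% lowered, and the 3 that fell in K5/K14 tumours stand beside 38.9% of all genes. Cd44, the hyaluronan receptor, which keratinocytes also express, rose from 241 CPM in skin to 529 in Ivl and 582 in K5/K14 tumours (1.13 ± 0.19, edgeR adjusted p 1.05e-04, and 1.27 ± 0.18, adjusted p 1.24e-05). Tnc, the matrix protein tenascin C, rose in Ivl tumours (2.40 ± 0.55, edgeR adjusted p 0.00234), and Itgb1, the integrin beta 1 chain, in K5/K14 tumours (1.78 ± 0.24, adjusted p 9.29e-06). Means in skin, Ivl and K5/K14 tumours were 37.5, 198 and 439.5 CPM for Tnc. For Itgb1 they were 242, 497 and 832 CPM, so both means were higher in both tumour groups. Among those that fell in Ivl tumours were Fbn1, the microfibril protein fibrillin 1 (-1.66 ± 0.57, edgeR adjusted p 0.0318), and Ncam1 (-1.49 ± 0.48, adjusted p 0.0211). In K5/K14 tumours Fap, a protease of activated fibroblasts (-2.16 ± 0.47, adjusted p 8.6e-04), and Tpm1 (-0.85 ± 0.28, adjusted p 0.0136) fell. Means in the same order of groups were 418, 132.5 and 195 CPM (Fbn1) and 15.9, 5.66 and 6.68 CPM (Ncam1). They were 15.1, 5.56 and 3.38 CPM for Fap and 462.5, 279 and 257 CPM for Tpm1. Each mean was thus lower than skin in both tumour groups. Within the 15 libraries 5 rose and 9 fell in Ivl tumours and 8 rose and 5 fell in K5/K14 tumours, and with library totals 3 rose and 15 fell there and 7 rose and 10 fell in K5/K14 tumours.

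Itga5, the alpha chain of the fibronectin receptor, was the 1 mesenchymal gene that differed between Ivl and K5/K14 tumours. It was lower in Ivl tumours (-1.27 ± 0.28, edgeR adjusted p 0.0314) at means of 40.5 CPM against 97.6, but it did not pass within the 15 libraries (-1.34, adjusted p 0.184). The median of the 36 genes between Ivl and K5/K14 tumours was -0.82, beside 0.11 over all genes.

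Of 41 tested transcription factor, partner and upstream signal genes, 10 rose and 2 fell in Ivl tumours and 11 rose and 11 fell in K5/K14 tumours, with medians of 0.01 and -0.04, beside the same shares and medians of all genes, and 0 differed between tumours of different origin. Without the set of 4 the number that fell in Ivl tumours was 9, with 10 raised, and in K5/K14 tumours 11 rose and 11 fell. Scrt2 of that list was not analysed here. Hmga2, a chromatin factor that is known to induce Snail genes, rose from 1.03 CPM in skin to 27.8 in Ivl and 52.3 in K5/K14 tumours (4.75 ± 0.71, edgeR adjusted p 5.5e-05, and 5.66 ± 0.73, adjusted p 7.63e-06). Hdac1, a histone deacetylase that works with Snail, rose by 1.16 ± 0.16 (adjusted p 2.41e-05) and 1.25 ± 0.15 (adjusted p 3.18e-06). Tcf4, an E protein partner of TWIST1, fell in Ivl tumours (-0.93 ± 0.30, edgeR adjusted p 0.0214), as did Lats2, a Hippo pathway kinase (-0.67 ± 0.24, adjusted p 0.0359). Means in skin, Ivl and K5/K14 tumours were 152, 79.7 and 70.4 CPM for Tcf4. For Lats2 they were 22.2, 13.9 and 14.6 CPM, so both means were lower in both tumour groups. Among K5/K14 tumours Id2, an inhibitor of helix-loop-helix factors (-1.94 ± 0.37, edgeR adjusted p 2.92e-04), and Foxc1 (-1.93 ± 0.38, adjusted p 3.68e-04) fell. Means in the same order of groups were 37.6, 22.3 and 9.77 CPM for Id2 and 50.65, 26.9 and 13.3 CPM for Foxc1. Gsc, the homeobox gene goosecoid, held 0 counts in every K5 tumour. With library totals 3 of these genes rose and 22 fell in Ivl tumours, and 4 rose and 28 fell in K5/K14 tumours.

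**Figure D5:**
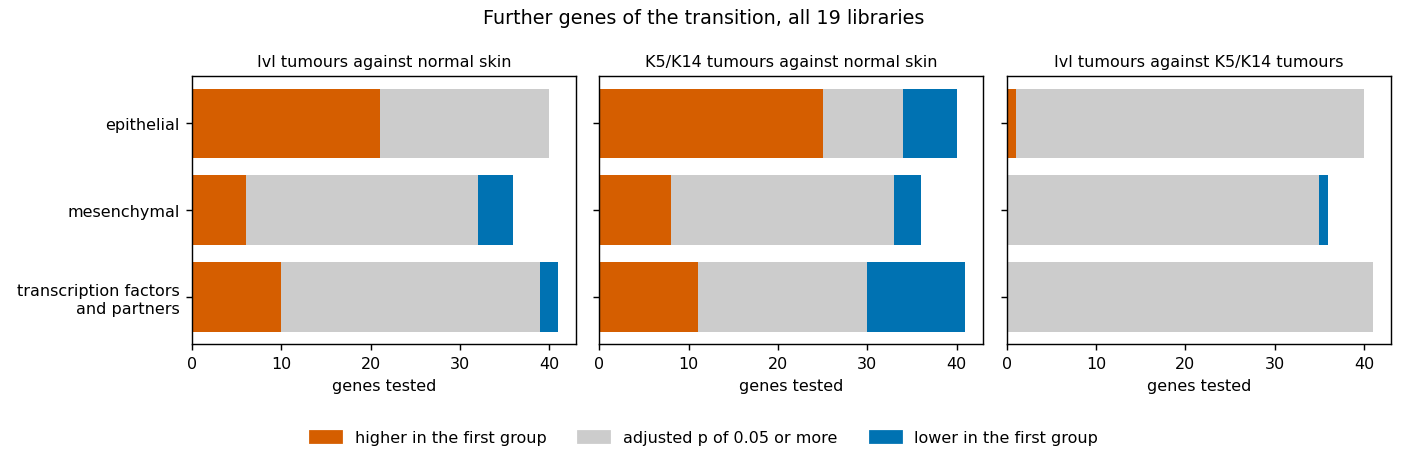
Number of genes (horizontal axis) of the lists of 40 epithelial genes, 36 mesenchymal genes and 41 transcription factors and partners that were higher, lower or not past an adjusted p of 0.05, over 19 libraries on the TMM scale. Most called epithelial genes are higher in tumours than in skin (21 of 21 in Ivl, 25 of 31 in K5/K14), and 1 epithelial and 1 mesenchymal gene differ between Ivl and K5/K14 tumours.

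Summed markers of other cell types, some of which express EMT genes, are given by group. Endothelial markers (10 genes) summed to 94.1 to 492 CPM in skin, 122 to 481 in Ivl, 239 to 529 in K5 and 274 to 521 in K14 tumours, with ranges that overlapped. Pericyte and smooth muscle markers (8 genes) summed to 533 to 985, 307 to 777, 362 to 983 and 496 to 660 CPM. Against skin, 3 of the 8 fell and 0 rose in Ivl tumours, beside 15.5% and 20.4% of all genes. In K5/K14 tumours 4 fell and 2 rose, beside 38.9% and 23.2%. Melanocytes are known to express Zeb2, and their markers (7 genes) summed to 49.6 to 365 CPM in skin and 4.17 to 190.4 in tumours. Schwann cell markers (7 genes) summed to 97.8 to 171.6 CPM in skin, 55.2 to 143 in Ivl, 41.9 to 66.6 in K5 and 46.2 to 64.4 in K14 tumours. Against skin, 6 of the 7 fell in K5/K14 tumours, beside 38.9% of all genes, and 0 in Ivl tumours, beside 15.5%. Skeletal muscle markers (8 genes), from the muscle layer under mouse skin, summed to 2291 to 6993 CPM in skin, 5.07 to 4120 in Ivl, 7.54 to 166 in K5 and 6.597 to 479 in K14 tumours. Neutrophil markers (9 genes) ran the other way, at 9.38 to 37.6 CPM in skin and 103 to 6580 in tumours, with Ly6g at 0 counts in all skin samples. The part of these cells in the fall of Cdh2, Zeb1, Zeb2 and Prrx1 was not tested, nor was that of keratinocytes in the rise of Cdh1 and Snai2.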

How the data were processed

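Poly(A) RNA of 15 tumours and 4 normal skin samples was sequenced in read pairs from a strand-specific kit, and the labels name 2 facilities for every library while the methods place the poly(A) libraries at the first of these. Per the labels and the study's methods, the authors trimmed reads with Trim Galore, aligned them with HISAT2 2.1.0 to GRCm38 and counted them per gene with featureCounts (Subread 1.6.3). FastQC 0.11.8 is also named. The study used DESeq2 for its tests. Strand use in counting is not given in the sources used here. The deposited values are estimated counts, since the authors adjusted the table for a batch with ComBat-seq, and were whole numbers already (0 values changed by rounding). The design had assumed plain counts, and the same count test was kept.

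Genes that reached 5 counts in any library were tested (32031 of 34807, and 31971 within the 15 libraries) after TMM scaling, using the two-sided quasi-likelihood F test of edgeR 4.0.16 in R 4.3.3 with limma 3.58.1, with Benjamini-Hochberg adjustment over all genes and a threshold of 0.05. Ivl, merged K5/K14 and skin groups shared 1 fit. K5 and K14 were kept apart to compare them. A standard error is the absolute log2 fold change over the root of F, and 95% intervals use the t quantile at the degrees of freedom of edgeR. Log2 CPM used a prior count of 2. Names and positions came from a GENCODE annotation on GRCm38, to which 34694 identifiers matched and 113 did not, and promoter windows from RefSeq, which held 6 of the 10 genes. The scripts were tested on simulated counts. None of 37 pairs of libraries of 1 group differed by as little as counting noise would give (the lowest chi-square over its degrees of freedom was 25.9).

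The rule for the 10 genes used names and no values, but the genes, lists and comparisons were drawn up with earlier results of these data known. All 10 genes were named, and from each list the 2 lowest adjusted p among called genes in each direction, and for each gene the 2 of highest r. Alternatives were DESeq2 1.42.0, other scalings and filters, the set of 4 as covariate or left out, only the groups compared, a replicate block and each library left out. Counting error is small at this depth except for genes near 1 CPM. No error of the batch adjustment enters any p.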

Additional observations from a re-analysis of the deposited data

Results flagged for a closer look

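Within-group outliers were looked for in 40 combinations of gene and group by Dixon's test, and 6 were found. Chance flags about 1 in 20. Of these, 4 belonged to Ivl tumour 3. Its Vim was 726.9 CPM, with the other Ivl tumours at 122.8 to 310.1. Its Zeb2 was 98.59 CPM (others 8.391 to 35.74), its Twist1 26.23 CPM (5.149 to 10.19) and its Twist2 6.784 CPM (1.822 to 3.212). That tumour also had the highest sums of fibroblast (11830 CPM), macrophage (559 CPM) and dermal papilla (161 CPM) markers among Ivl tumours. Zeb2 in K5 tumour 1 was 68.53 CPM, with the other K5 tumours at 23.29 to 29.81, and the fibroblast sum there was the highest of all tumours (16840 CPM). Both libraries belong to the set of 4 that carries the trace of the batch adjustment. Vim in K14 tumour 1 was 438.7 CPM, with the others at 265.5 to 282.0, and this tumour had the highest fibroblast (14340 CPM) and macrophage (374 CPM) sums of the K14 group. The part of stromal content or of the batch adjustment in these values was not tested.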

How the results depend on the processing

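Over 400 values of single genes under planned or added settings, apart from left-out libraries, 372 kept their direction and their side of the threshold, 8 lost a call, 4 gained one and 16 changed sign. None of the values that changed sign had passed the threshold. The causes were not tested. Library totals, the protein-coding TMM and the left-out libraries within the 15 were added after the data had been seen.

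The libraries share replicate numbers across groups, but the numbers do not pair them (25 same-numbered pairs, r of deviations -0.503 to 0.426, 9 over 0.1). With a replicate block the number of EMT genes called in Ivl tumours against skin was 3, with Cdh2 (adjusted p 0.0819), Zeb2 (0.0504) and Prrx1 (0.0787) lost. In K5/K14 tumours 4 remained past the threshold, without Zeb1 (0.0644) and Prrx1 (0.118), and Snai1 stood at 0.144 in place of -0.348. The other counts called were 5 to 7 in Ivl and 6 in K5/K14 tumours under all other settings, and 0 between tumours under every one.

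Twist2 in Ivl tumours against skin, near 0 at first (0.005), was -0.127 with DESeq2 size factors and with the DESeq2 Wald test, -0.594 with library totals, -0.186 with the protein-coding TMM, -0.002 with no filter, -0.161 with filterByExpr, -0.364 within the 15 libraries, -0.271 with the set as covariate and -0.093 with only the groups compared. Twist1 in K5/K14 tumours was -0.487 with library totals. Between Ivl and K5/K14 tumours Zeb2 was -0.41 within the 15 and -0.44 with the covariate, and Snai2 0.003 within the 15. Zeb1 between K5 and K14 tumours was -0.178 and -0.142.

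With each library left out, values that changed sign ranged as follows. In Ivl tumours against skin, Twist1 ran from -1.08 to 0.168 and Twist2 from -0.369 to 0.499 (-0.713 to 0.097 within the 15). In K5/K14 tumours, Snai1 ran from -0.757 to 0.29 (-0.95 to 0.211) and Twist1 from -0.067 to 1.0 (-0.122 to 0.944). Between Ivl and K5/K14 tumours, Cdh2 ran from -0.003 to 0.705 (-0.186 to 0.25), Zeb2 from -0.594 to 0.358, and Snai2 within the 15 from -0.076 to 0.136. Between K5 and K14 tumours, Zeb1 ran from -0.178 to 0.264, and within the 15 Cdh1 from -0.104 to 0.089, Zeb2 from -0.029 to 0.152 and Twist1 from -0.039 to 0.704. Genes called were 4 to 7 in Ivl and in K5/K14 tumours against skin, and 6 to 7 in each within the 15.

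Scaling moved the balance of all genes raised and lowered. In Ivl tumours it was 6535 to 4980 with TMM, 5712 to 6828 with DESeq2 size factors, 5345 to 7746 with the protein-coding TMM and 2868 to 15460 with library totals. In K5/K14 tumours it was 7440 to 12476, 6764 to 13711, 6188 to 14656 and 3239 to 20668. Genes differing between Ivl and K5/K14 tumours were 756, and 2133 with the DESeq2 Wald test.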

Other observations

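The dermal papilla list, marker genes of the mesenchymal cells that instruct the hair follicle, behaved unevenly among K5/K14 tumours. Of its 7 genes 1 rose and 5 fell against skin, beside 23.2% and 38.9% of all genes, with a median log2 fold change of -2.66. Its summed level was higher, at 126 to 221 CPM against 31.0 to 80.1 CPM in skin. With most of its genes lower, this sum cannot be read as dermal papilla content. Prrx1 had r of 0.95 with that sum over the 11 tumours outside the set of 4 and 0.81 over the 8 K5/K14 tumours (0.67 without the 2 farthest). Twist2 had 0.83 and 0.69. No test was made of these values.

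Of the hair follicle markers, Shh held 0 counts and Krt35 1 count or fewer in each K5 tumour. The follicle sum was 33.5 to 2631 CPM in skin and 8.88 to 14.7 CPM in K5 tumours. Krt85 was not analysed here. The muscle gene Tnnc2 was at 1 count or fewer in every K5 and K14 tumour.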
